A study of Mus musculus with 15 samples.

Results

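Prostaglandin E2 is made, exported, taken up, broken down and sensed by the products of a small set of genes, and 9 of them are described here in sorted mouse intestinal epithelial cells. They are Pla2g4a, Ptgs2, Ptges, Ptges2, Ptges3, Hpgd, Slco2a1, Ptger2 and Ptger4. These genes were chosen by name for their place in the pathway, with earlier results of these data known. They were found by their Entrez gene identifiers among the 27179 genes of the deposited count table. The cells came from mice carrying both the Lrig1-eGFP-IRES-CreERT2 allele, which places a green fluorescent reporter under the control of Lrig1, and APCmin, a mutant Apc allele that gives intestinal tumors. All groups carried both alleles. No animal without APCmin, and neither age nor sex, is described in the labels. Tumors were cut away from the tissue around them, and EpCam-positive cells without CD45 or CD31 were sorted by reporter signal into Lrig1-high and Lrig1-low fractions. The groups were tumor Lrig1-high (3 libraries), tumor Lrig1-low (4 libraries), normal epithelium Lrig1-high (4 libraries) and normal epithelium Lrig1-low (4 libraries). The sample titles name the tissues as colonic tumors and normal colonic epithelium.

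The precursor arachidonic acid is cut from membrane phospholipids by phospholipases such as cytosolic phospholipase A2, the product of Pla2g4a. Cyclooxygenases, the inducible one encoded by Ptgs2, turn it into a short-lived endoperoxide, and prostaglandin E synthases (Ptges, Ptges2, Ptges3) turn that into prostaglandin E2. The transporter made from Slco2a1 carries prostaglandins into cells, where the dehydrogenase made from Hpgd inactivates them, while the receptors EP2 (Ptger2) and EP4 (Ptger4) signal their presence through cyclic AMP. In the gut the pathway is known for protecting the epithelium and, in mice with mutant Apc, for the smaller number of polyps that form when Ptgs2 is lost or inhibited.

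Of the 9 genes, Ptger4 was higher and Hpgd lower in tumor cells than in normal cells when the reporter fractions were averaged, and these 2 of the 6 members tested were the only ones that passed the test in any comparison of the fit reported here. In that averaged comparison 2.22% of the 13883 genes tested passed (308 genes), and this share rested on single libraries: 34 to 74 genes passed without S01, S02, S05, S06, S11, S13 or S14, and more than with all libraries passed without S10 and without S04 (1060 genes without S04). Levels are given in CPM, the usual measure of counts relative to the scaled library total. Both calls lie near the threshold: of 14 fits that each left out 1 library, the Hpgd call was lost in 10 and the Ptger4 call in 7. The upstream enzymes Ptgs2 and Ptges and the receptor gene Ptger2 were at or near 0 in every library.

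Because Ptger4 and Hpgd carry the differences, the 250 bases before the start of each gene are shown (RefSeq sequences, GRCm38.p6, 5′ to 3′ on the strand of the gene). Capitals mark the matches of 5 short motifs that were searched on both strands: TATAAA (the site of the TATA-binding protein), TGACG (part of the cyclic AMP response element), CTTTGA (core of the TCF and LEF site), CANNTG (E-box) and GGGCGG (GC box). The Ptger4 window is chr15:5244188-5244437 on the minus strand, before a RefSeq start that lies upstream of the Ptger4 exons used for counting, and the Hpgd window is chr8:56294302-56294551 on the plus strand.
Ptger4: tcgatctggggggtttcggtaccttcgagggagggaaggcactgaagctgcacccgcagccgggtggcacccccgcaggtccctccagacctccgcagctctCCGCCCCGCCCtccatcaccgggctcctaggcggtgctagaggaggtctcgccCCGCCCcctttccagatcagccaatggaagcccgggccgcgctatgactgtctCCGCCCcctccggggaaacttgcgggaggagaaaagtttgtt
Hpgd: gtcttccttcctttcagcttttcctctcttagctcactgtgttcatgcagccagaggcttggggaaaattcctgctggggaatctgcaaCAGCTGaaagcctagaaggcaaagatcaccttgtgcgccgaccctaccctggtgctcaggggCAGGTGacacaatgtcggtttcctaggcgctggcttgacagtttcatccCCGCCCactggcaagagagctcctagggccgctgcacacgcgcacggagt
The Ptger4 window held 4 matches of the GC box, all in the orientation CCGCCC, beginning 148, 143, 95 and 42 bases upstream of the start, of which the first pair share 1 base, and no match of the other motifs. Its GC content was 66.8%, against a median of 52% over 27025 mouse promoters. The Hpgd window held the E-box at 161 and 99 bases and the GC box at 50 bases upstream, with a GC content of 56.8%. Among the 27025 promoters 32.9% held the GC box, 66.0% the E-box, 12.97% the TATAAA site, 17.9% the TGACG site and 14.1% the CTTTGA core. Neither window held those last 3 motifs. These matches describe letters only, and the series has no measurement of what binds there.

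The library S15, labelled tumor Lrig1-low, held 357 counts and was left out, so 3 tumor Lrig1-low libraries remained, and the other 14 libraries held 9508505 to 17296536 counts. The share of counts from mitochondrial ribosomal RNA was 12.9% to 42.8%. The highest share was that of S12, a tumor Lrig1-high library in which only 11995 genes were detected, fewer than in any other of the 14. Epcam stood at 604.7 to 1509 CPM. Pecam1 (CD31) reached at most 1.85 CPM and Ptprc (CD45) at most 11.2 CPM, except for 46.1 CPM in the tumor Lrig1-high library S08. Against its median of 64.1 CPM over the 14 libraries, the Lrig1 RNA lay on the side opposite to the sort label in 4 libraries. It was 148.2, 55.7 (S08) and 72.5 CPM in tumor Lrig1-high, 53.2, 141.7 (S07) and 43.0 CPM in tumor Lrig1-low, 126.3, 138.4, 36.4 (S10) and 145.9 CPM in normal Lrig1-high, and 51.4, 45.3, 85.5 (S09) and 54.0 CPM in normal Lrig1-low libraries. S09 was intermediate, below the normal Lrig1-high libraries S02, S06 and S14. S12, labelled Lrig1-high, was lower than S09 and was kept. Every comparison was also fitted without S07, S08, S09 and S10, and the values that moved most are given beside those of all 14. The summed level of 12 small intestine markers was 2555 to 10253 CPM, and that of 10 colon markers 242.3 to 3467 CPM, most of it from the goblet cell genes Muc2 and Tff3, which the small intestine also expresses. The median small intestine marker in a library was at 99.95 to 388.1 CPM and the median colon marker at 0.108 to 3.24 CPM. Hoxb13 and Hoxd13, which mark the distal colon, had no count, so the colon is named here by the labels only.

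The 9 genes differed widely in level. On the scale of CPM per kilobase of exon, which allows genes to be compared, the means over the 14 libraries were 38.9 for Hpgd, 36.9 for Ptges3, 12.1 for Ptges2, 10.2 for Ptger4, 6.88 for Pla2g4a and 3.36 for Slco2a1. Ptges, Ptgs2 and Ptger2 stood at 0.0691, 0.0519 and 0.00115 CPM per kilobase. The first 6 genes passed the filter on low counts and were tested, and the last 3 did not. The enzyme that breaks prostaglandins down was therefore among the most abundant RNAs of the set, and the inducible enzymes that start and finish the synthesis of prostaglandin E2 were among the scarcest.

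**Figure D1:**
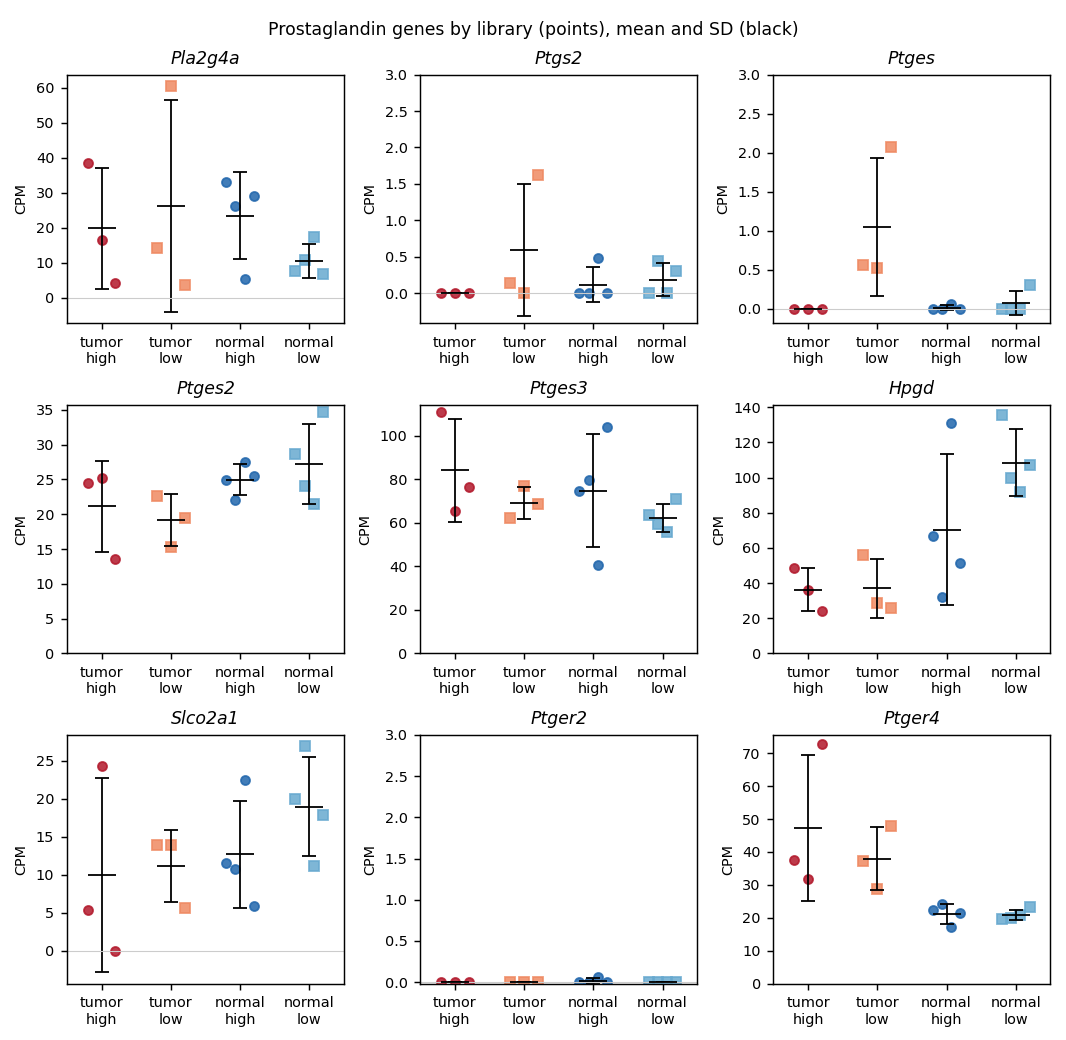
Level of each of the 9 genes in every library, in CPM on a linear axis that differs between panels, for tumor Lrig1-high, tumor Lrig1-low, normal Lrig1-high and normal Lrig1-low cells. Points are libraries, and black bars give the mean and SD (n = 3 in each tumor group and n = 4 in each normal group). Ptger4 lies higher in all 6 tumor libraries than in the 8 normal libraries, Hpgd is at most 56.0 CPM in tumor libraries with the normal Lrig1-high libraries S06 and S14 within their range, and Ptgs2, Ptges and Ptger2 stay at or near 0.

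Pla2g4a (chr1:149829622-149961284, minus strand, mm10) varied widely between libraries of the same group. Its level was 38.5, 16.6 and 4.32 CPM in tumor Lrig1-high cells and 14.2, 60.5 and 3.78 CPM in tumor Lrig1-low cells. It was 33.0, 26.3, 5.395 and 29.2 CPM in normal Lrig1-high cells and 7.66, 10.7, 17.3 and 6.69 CPM in normal Lrig1-low cells. The highest value belonged to S07, a tumor library labelled Lrig1-low with high Lrig1 RNA, and 3 of the 4 normal Lrig1-high libraries lay above all normal Lrig1-low libraries. The fourth was S10, the one with little Lrig1 RNA. The tumor over normal log2 fold change, averaged over the fractions, was 0.53 ± 0.60 (SE; edgeR quasi-likelihood test, adjusted p = 0.705), and it was -0.16 without S07, S08, S09 and S10. The Lrig1-high over Lrig1-low change in normal cells was 1.14 ± 0.79 (adjusted p = 1). Without those 4 libraries it was 1.83 ± 0.73 (adjusted p = 0.177).

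**Figure D2:**
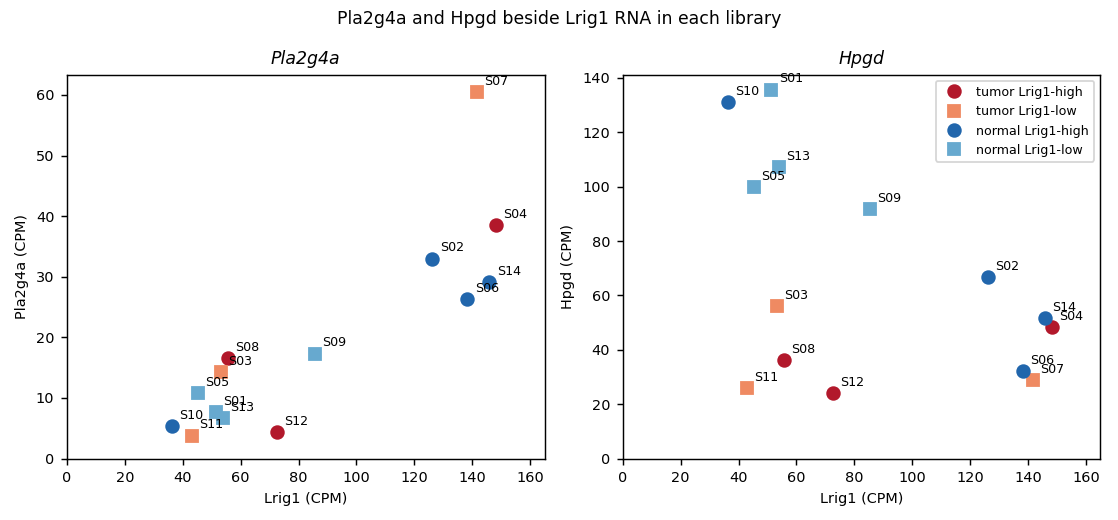
Pla2g4a (left) and Hpgd (right) against Lrig1, all in CPM on linear axes, in each of the 14 libraries, with circles for Lrig1-high and squares for Lrig1-low labels, red for tumor and blue for normal cells. The 5 libraries with 126.3 CPM or more of Lrig1 (S02, S04, S06, S07 and S14) hold the 5 highest Pla2g4a levels, 26.3 to 60.5 CPM, and S07 and S10 lie with the opposite label.

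Across the libraries Pla2g4a followed the measured Lrig1 RNA more closely than the label, as the plot of Pla2g4a beside Lrig1 shows. This is a description of 14 libraries that share their scaling, and it was noticed after the values were seen. The 3 genes whose pattern over the 14 libraries was most like that of Pla2g4a were Cdca8, Clspn and Mcm2, which act in chromosome segregation, in the replication checkpoint and in licensing of DNA replication. Likeness was measured as the root mean square difference of log2(CPM + 1) after centring each gene, over 8559 genes with a mean of at least 10 CPM. It was 0.48, 0.50 and 0.51 for these genes, against a median of 1.19 over all genes compared. The summed level of 10 intestinal stem cell markers, of which Lrig1 is 1, was 910.6 to 7706 CPM in tumor libraries and 513 to 8375 CPM in normal libraries. It was at least 6167 CPM in the same 5 libraries and at most 4837 CPM in the other 9. The sum of 4837 CPM was that of S12, where Pla2g4a was at 4.32 CPM. The part of the makeup of the sorted cells in the Pla2g4a levels was not tested.

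Ptgs2 (chr1:150100124-150108017, plus strand), the inducible cyclooxygenase, was hardly detected. It had no count in the 3 tumor Lrig1-high libraries, and 2, 0 and 22 counts in the tumor Lrig1-low libraries S03, S07 and S11. In normal cells it had 8 counts in 1 Lrig1-high library (S10), and 5 and 4 counts in the Lrig1-low libraries S05 and S13, with none in the other 5. The highest level was 1.63 CPM in S11. A count of 0 allows up to 3 counts, or 0.172 to 0.324 CPM at these depths, for counting error only. At this depth a difference between tumor and normal cells was not detectable for Ptgs2, which was not tested.

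Ptges (chr2:30889471-30903297, minus strand), the inducible microsomal prostaglandin E synthase that is known to work with the product of Ptgs2, was also near the floor. It had 8, 9 and 28 counts in the tumor Lrig1-low libraries S03, S07 and S11, or 0.563, 0.517 and 2.07 CPM. It had no count in the 3 tumor Lrig1-high libraries, 1 count in the 4 normal Lrig1-high libraries together and 4 counts, all in S13, in the 4 normal Lrig1-low libraries. The 3 tumor Lrig1-low libraries therefore lay above the normal Lrig1-low and above the tumor Lrig1-high libraries without overlap, at very low levels that the filter kept out of the test. Such a separation of few libraries was common: of the genes that were tested, 9.95% lay higher without overlap in tumor than in normal Lrig1-low cells, and 5.24% lay lower without overlap in Lrig1-high than in Lrig1-low cells of tumors. By edgeR's test 0.331% of genes passed in the first of these comparisons and 0% in the second. The library S11, with the most Ptgs2 and Ptges, also had the highest summed fibroblast markers (31.2 CPM, against 0.541 to 9.22 CPM in the other tumor libraries and 1.92 to 11.5 CPM in normal libraries), mostly from Pdgfra at 26.1 CPM, while Lum had no count anywhere and Col1a1 reached at most 0.858 CPM. Summed endothelial markers were also highest in S11, at 222.3 CPM, against 13.3 to 62.8 CPM in the other tumor libraries and 6.81 to 49.7 CPM in normal libraries. Most of that sum was Cdh5, at 154.9 CPM. Flt1, Vwf and Tek reached 23.8, 21.4 and 14.6 CPM in tumor libraries and 4.36, 5.15 and 4.30 CPM in normal libraries. Esam, Lyve1 and Pecam1 reached 5.18, 3.25 and 1.11 CPM in tumor libraries and 8.14, 4.28 and 1.85 CPM in normal libraries. Emcn had no count in any library, and Kdr and Plvap reached at most 0.222 and 0.422 CPM. The part of other cells in the Ptgs2 and Ptges counts was not tested.

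Ptgs1, which encodes the constitutive cyclooxygenase and is also a tuft cell marker, is named here after its values were seen. It was detected in all 14 libraries, at 0.216 to 34.0 CPM in tumor cells (median 7.27) and 0.264 to 17.5 CPM in normal cells (median 2.97), and it did not pass the test (edgeR, adjusted p = 0.770). Its highest level lay in S08, the library with the highest summed level of the 12 tuft cell markers (1308 CPM, against 58.0 to 491.2 CPM in the other tumor libraries and 20.1 to 632.1 CPM in normal libraries).

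Ptges2 (chr2:32395890-32402740, plus strand), a membrane-associated protein named as a prostaglandin E synthase, was steady between libraries. It averaged 21.1 ± 6.51 CPM in tumor Lrig1-high cells (SD, n = 3), 19.1 ± 3.70 CPM in tumor Lrig1-low cells (n = 3), 25.0 ± 2.24 CPM in normal Lrig1-high cells (n = 4) and 27.2 ± 5.78 CPM in normal Lrig1-low cells (n = 4). Of the 6 tumor libraries 3 lay below all normal libraries, and the tumor over normal change was -0.37 ± 0.19 (log2, SE; edgeR, adjusted p = 0.341). Ptges3 (chr10:128058982-128077254, plus strand) encodes p23, a partner of the chaperone Hsp90 that was also given a prostaglandin E synthase name. It averaged 84.2 ± 23.6, 69.2 ± 7.34, 74.9 ± 26.1 and 62.4 ± 6.42 CPM in tumor Lrig1-high, tumor Lrig1-low, normal Lrig1-high and normal Lrig1-low cells, with a tumor over normal change of 0.16 ± 0.19 (adjusted p = 0.720). RefSeq lists 1 pseudogene named after Ptges3, which could share reads with it.

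Hpgd (chr8:56294552-56321046, plus strand) encodes 15-hydroxyprostaglandin dehydrogenase, the enzyme that makes the first step of prostaglandin inactivation and is known as a tumor suppressor in the colon of mice. It was at 48.4, 36.2 and 24.1 CPM in tumor Lrig1-high cells and at 56.0, 29.0 and 26.0 CPM in tumor Lrig1-low cells. It was at 66.8, 32.2, 131.2 and 51.6 CPM in normal Lrig1-high cells and at 135.7, 99.8, 91.7 and 107.1 CPM in normal Lrig1-low cells. In the Lrig1-low fraction all 3 tumor libraries lay below all 4 normal libraries, as they did for 8.39% of all genes tested. In the Lrig1-high fraction the groups overlapped, since the normal library S06 lay below 2 of the 3 tumor libraries. The means were 36.3 ± 12.2 CPM in tumor Lrig1-high cells (SD, n = 3), 37.0 ± 16.6 CPM in tumor Lrig1-low cells (n = 3), 70.4 ± 42.9 CPM in normal Lrig1-high cells (n = 4) and 108.6 ± 19.1 CPM in normal Lrig1-low cells (n = 4).

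With the fractions averaged, Hpgd fell in tumor cells (log2 fold change -1.25 ± 0.30, SE; edgeR quasi-likelihood test, adjusted p = 0.0494). Of all genes tested, 0.396% passed as lower in tumor cells. Within Lrig1-low cells the change was -1.55 ± 0.43 (adjusted p = 0.112), and no member passed there, where 0.31% of all genes tested passed as higher and 0.0216% as lower in tumor cells. Within Lrig1-high cells it was -0.96 ± 0.42 (adjusted p = 0.427), and there it was -0.44 ± 0.43 without S07, S08, S09 and S10, -0.47 ± 0.35 without S10 alone and -0.29 ± 0.55 in limma-voom. In that fraction 0% of all genes passed in edgeR, against 114 genes in DESeq2, 12 without the same 4 libraries and 807 without S04. At an unadjusted p under 0.05, 1559 genes passed there and 1949 in Lrig1-low cells, with Hpgd and Ptger4 as the 2 members that did in each fraction. The change in the 2 fractions differed by 0.60 ± 0.59 (adjusted p = 0.789), and by 1.05 ± 0.61 without the same 4 libraries (adjusted p = 0.520), so no difference between the fractions was shown. The averaged change was -0.96 ± 0.31 without S07, S08, S09 and S10 (adjusted p = 0.122) and -1.17 ± 0.32 without S12 (adjusted p = 0.0785), and leaving out single libraries gave adjusted p-values of 0.0311 to 0.154, with the call kept only without S03, S04, S06 or S10. The call was also lost in limma-voom with sample weights (-0.80, adjusted p = 0.241) and in edgeR with DESeq2 size factors (adjusted p = 0.0508), and it was kept in DESeq2 (adjusted p = 0.00315).

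The summed level of 12 mature enterocyte and colonocyte markers was highest in the libraries with the most Hpgd. It was 968.6 to 3312 CPM in tumor libraries (median 1332) and 1268 to 6074 CPM in normal libraries (median 3722). The 4 libraries with the highest sums, the normal libraries S01, S05, S10 and S13, were also the 4 with the most Hpgd. The next sums, in S03 and S09 (3312 and 2816 CPM), went with Hpgd at 56.0 and 91.7 CPM. Below these the order was looser. S12, S02 and S14 had nearly equal sums (1425, 1420 and 1415 CPM) with Hpgd at 24.1, 66.8 and 51.6 CPM. Car1, one of the defining colonocyte markers, had no count in any normal library and at most 0.222 CPM in tumor libraries. Hpgd is itself known to be high in mature cells of the intestinal surface, and in bulk libraries fewer cells of a type and less RNA per cell cannot be told apart. The part of the mature cells in the Hpgd change was not tested. The genes whose pattern over the 14 libraries was most like that of Hpgd were Fahd1, Maoa and Atp7b, a mitochondrial hydrolase, the amine-degrading monoamine oxidase A and a copper transporter, with root mean square differences of 0.21, 0.27 and 0.28 (log2), against a median of 0.92. Maoa averaged 131.3 CPM in tumor and 303.7 CPM in normal libraries.

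Slco2a1 (chr9:103008489-103087849, plus strand), the prostaglandin transporter, had the largest SD of log2(CPM + 1) of the 6 tested genes over the libraries (1.24, against 1.16 for Pla2g4a). It was at 5.39, 24.4 and 0 CPM in tumor Lrig1-high cells and at 13.9, 13.9 and 5.63 CPM in tumor Lrig1-low cells. It was at 11.5, 10.8, 22.6 and 5.86 CPM in normal Lrig1-high cells and at 19.97, 26.9, 11.1 and 17.9 CPM in normal Lrig1-low cells. The library without a count was S12, where a count of 0 allows up to 0.324 CPM. The tumor over normal change was -0.56 ± 0.69 (log2, SE; edgeR, adjusted p = 0.736), and it was smaller without S12 (-0.30 ± 0.42) and S10 (-0.34 ± 0.71), and larger without S08 (-1.48 ± 0.67, adjusted p = 0.231) and without S07, S08, S09 and S10 (-1.44 ± 0.78, adjusted p = 0.334). Genes most like Slco2a1 in pattern were H2-Q2, Khnyn and Ano7, with root mean square differences of 0.36, 0.36 and 0.37, against a median of 1.25. The 0 in S12, the library with the fewest genes detected, weighs heavily in this measure, so the likeness may rest largely on that library.

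Ptger2 (chr14:44988111-45003820, plus strand), the gene of the EP2 receptor, had 1 count in all 14 libraries together, in the normal Lrig1-high library S10. Ptger4 (chr15:5233404-5243831, minus strand), the gene of the EP4 receptor, was thus the detected member of the pair of receptor genes that act through a rise of cyclic AMP. It was at 37.5, 31.7 and 72.8 CPM in tumor Lrig1-high cells and at 37.2, 28.9 and 47.9 CPM in tumor Lrig1-low cells. It was at 22.3, 24.1, 17.1 and 21.5 CPM in normal Lrig1-high cells and at 19.6, 20.05, 20.8 and 23.2 CPM in normal Lrig1-low cells. All 6 tumor libraries lay above all 8 normal libraries, as they did for 0.886% of all genes tested, and the normal libraries of both fractions were close to each other.

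Ptger4 rose in tumor cells with the fractions averaged, and its mean was 42.7 ± 16.1 CPM in tumor libraries (SD, n = 6), against 21.1 ± 2.22 CPM in normal libraries (n = 8). The log2 fold change was 1.01 ± 0.20 (SE; edgeR quasi-likelihood test, adjusted p = 0.0280), in the direction in which 1.82% of all genes tested passed. It was 1.15 ± 0.28 within Lrig1-high cells (adjusted p = 0.355) and 0.86 ± 0.28 within Lrig1-low cells (adjusted p = 0.167), with a difference between the fractions of 0.29 ± 0.40 (adjusted p = 0.845). The direction was the same in both fractions, and no difference between them was shown. Without S07, S08, S09 and S10 the averaged change was 1.15 ± 0.20 (adjusted p = 0.0127). Without S12, the library with the highest level, it was 0.75 ± 0.14 (adjusted p = 0.0268), and without S11 it was 0.91 ± 0.21 (adjusted p = 0.0955), which lost the call. The call was also lost without S01, S02, S05, S06, S13 or S14, each a normal library, with the fold change between 0.75 and 1.12 over all 14 such fits. The summed level of 12 leukocyte markers was 3.46 to 57.2 CPM in tumor and 5.81 to 29.0 CPM in normal libraries, and the median leukocyte marker reached at most 0.221 CPM. The endothelial and mast cell sums had a higher median in tumor than in normal libraries, as Ptger4 did. So did the tuft cell (277.1 against 135.8 CPM), stem cell (3202 against 1810 CPM) and colon marker sums (1568 against 1522 CPM). S12 and S11, with the most Ptger4, had endothelial sums of 28.2 and 222.3 CPM and mast cell sums of 77.5 and 66.2 CPM. S07 and S08, with the least Ptger4 among tumor libraries, had endothelial sums of 26.8 and 56.7 CPM. Their mast cell sums were the highest of all (99.6 and 92.0 CPM). S10, with the least Ptger4 of all, had the highest endothelial sum among normal libraries (49.7 CPM) and a mast cell sum of 48.4 CPM. Summed endothelial markers, given above for S11, had a median of 42.4 CPM in tumor and 8.89 CPM in normal libraries. The summed level of 8 mast cell markers was 50.2 to 99.6 CPM in tumor libraries (median 71.9) and 18.97 to 67.9 CPM in normal libraries (median 35.1). Nearly all of it was Kit, at 46.8 to 99.3 CPM in tumor and 18.97 to 67.6 CPM in normal libraries, while no other mast cell marker exceeded 2.18 CPM and the mast cell gene Fcer1a had no count in any library. The part of these cells in the Ptger4 level was not tested.

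**Figure D3:**
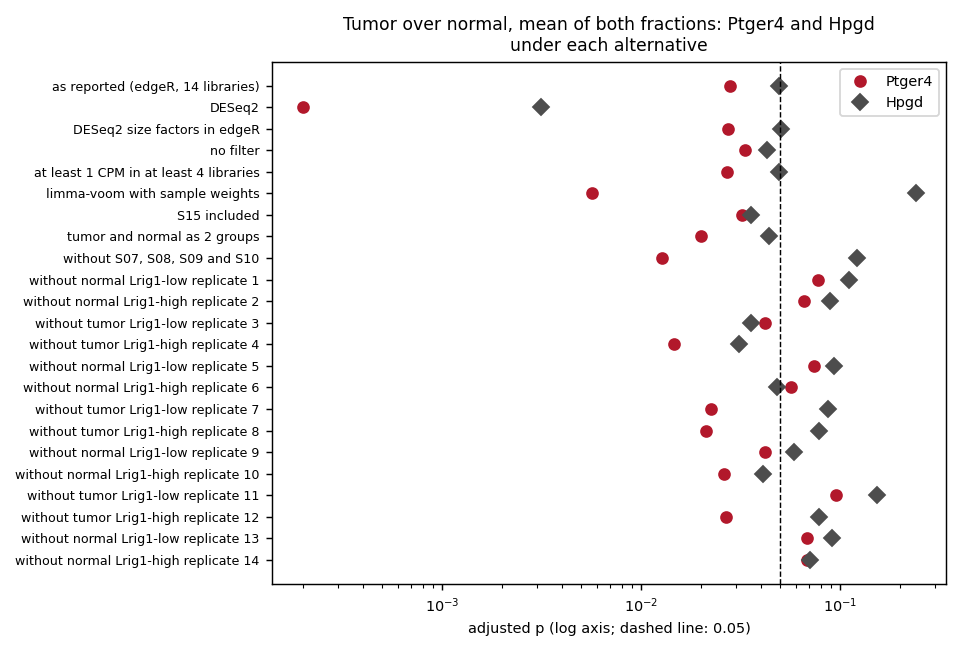
Adjusted p of Ptger4 (circles) and Hpgd (diamonds) for tumor over normal cells, averaged over the fractions, as reported and under each alternative, on a log axis with a dashed line at 0.05. DESeq2 gives the smallest values (0.000199 for Ptger4 and 0.00315 for Hpgd). Neither gene passes when S01, S02, S05, S11, S13 or S14 is left out singly. Without the tumor Lrig1-low library S11 the values are 0.0955 and 0.154.

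Between the reporter fractions no member passed edgeR's test, and 0% of all genes did in normal cells, in tumors and in the test of the difference between them. At an unadjusted p under 0.05, 499 genes in normal cells, 1042 genes in tumors and 999 genes in the test of the difference passed, and none of the 6 members did. DESeq2 called 1, 22 and 5 genes there, none of them a member. Without S07, S08, S09 and S10, 796 genes passed in normal cells, 48 in tumors and 0 in the test of the difference, again with no member among them. Without S04, 365 genes passed in tumors and 157 in the test of the difference. In normal cells the Lrig1-high over Lrig1-low changes were -0.62 ± 0.38 for Hpgd, -0.58 ± 0.90 for Slco2a1 and 0.02 ± 0.26 for Ptger4 (log2, SE). Without the same 4 libraries, of which S09 and S10 belong to these groups, they were -1.17 ± 0.39 for Hpgd (adjusted p = 0.116), -1.18 ± 0.95 for Slco2a1 (adjusted p = 0.537) and 0.13 ± 0.26 for Ptger4 (adjusted p = 0.848). In tumors they were -0.03 ± 0.44 for Hpgd, -0.40 ± 0.90 for Pla2g4a and 0.32 ± 0.30 for Ptger4, and the sign of each of these changes was turned by leaving out 1 library or by another test. Slco2a1 stood at -0.17 ± 1.04 there, and at -1.77 ± 1.20 without the 4 libraries. With limma-voom and sample weights, 3 members passed in normal cells, Pla2g4a higher (1.71, adjusted p = 0.0159), and Hpgd and Slco2a1 lower in Lrig1-high cells (-1.11, adjusted p = 0.00655, and -0.96, adjusted p = 0.0428), while 4169 genes passed in all.

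**Figure D4:**
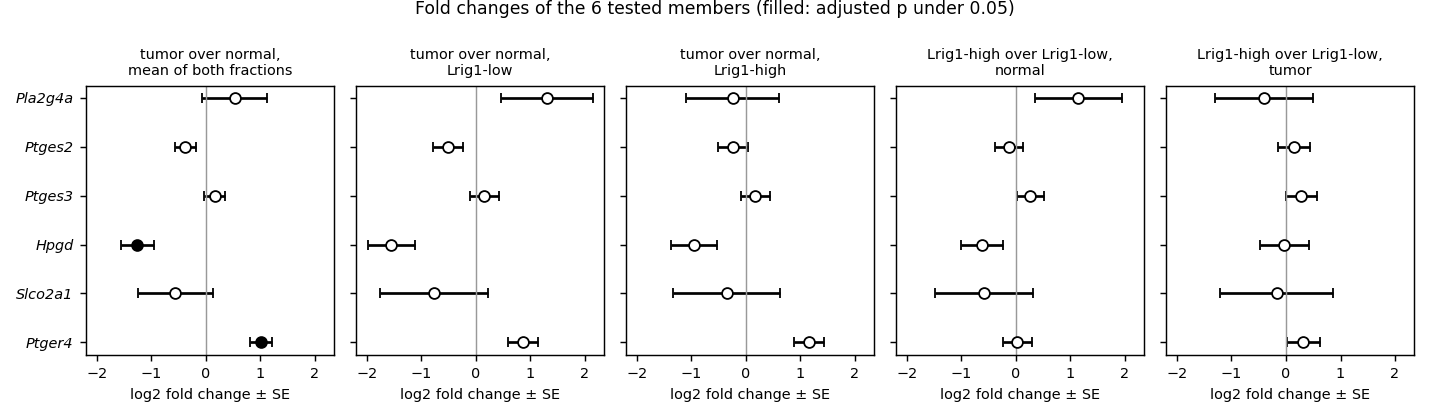
Log2 fold changes with SE (edgeR) of the 6 tested genes for tumor over normal cells, averaged over the fractions and within Lrig1-low and Lrig1-high cells, and for Lrig1-high over Lrig1-low cells in normal tissue and in tumors. Filled circles mark an adjusted p under 0.05, which Hpgd (-1.25) and Ptger4 (1.01) reach in the averaged comparison, and open circles mark the rest.

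With the fractions averaged, the gene that ends the signal fell and a gene that senses it rose, and the plot of Hpgd against Ptger4 gives both in each library. The number of Hpgd counts per Ptger4 count needs no scaling between libraries. It was 1.29, 1.14 and 0.331 in tumor Lrig1-high cells and 1.505, 1.004 and 0.543 in tumor Lrig1-low cells. It was 2.997, 1.34, 7.67 and 2.40 in normal Lrig1-high cells and 6.93, 4.98, 4.41 and 4.62 in normal Lrig1-low cells. The tumor median was 1.07 and the normal median 4.52, and the groups overlapped by 1 library, the normal library S06 lying below the tumor library S03. The pair was chosen after the values were seen, so the ratio is a description without a test.

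**Figure D5:**
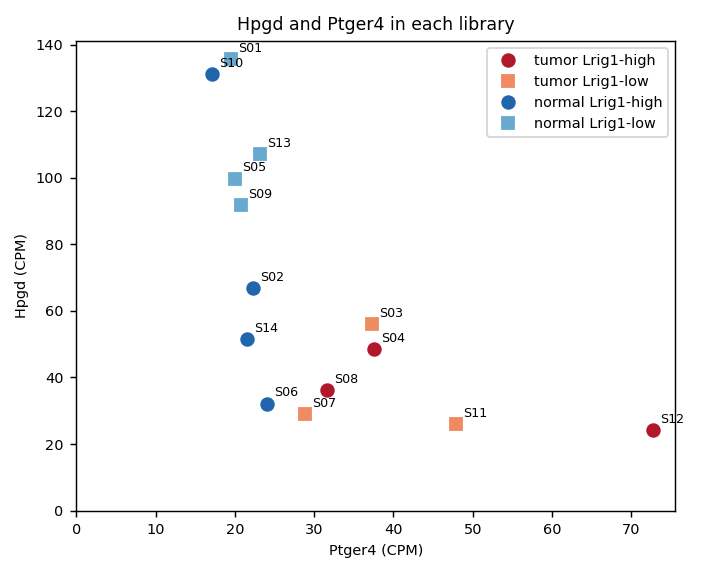
Hpgd against Ptger4 in each of the 14 libraries, both in CPM on linear axes, with circles for Lrig1-high and squares for Lrig1-low, red for tumor and blue for normal cells. The 8 normal libraries lie in a narrow band of Ptger4 (17.1 to 24.1 CPM) with Hpgd between 32.2 and 135.7 CPM, and the 6 tumor libraries lie to the right of it with Hpgd at 56.0 CPM or less.

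Other genes of the pathway were taken from 6 lists, read with the fractions averaged unless another comparison is named. In that comparison 1.82% of all genes tested passed as higher in tumor cells, the share to set beside the counts of each list. Among other phospholipases A2, 14 of 19 were tested and 2 rose in tumor cells, with a median log2 change of 0.34 over the tested genes against -0.02 over all genes. Pla2g2f, a secreted phospholipase, was at 16.5, 21.9 and 26.9 CPM in tumor Lrig1-high and 28.6, 19.5 and 63.1 CPM in tumor Lrig1-low cells, against 11.7, 6.22, 12.5 and 3.04 CPM in normal Lrig1-high and 7.99, 6.26, 6.08 and 7.78 CPM in normal Lrig1-low cells. Its change was 1.89 ± 0.34 (edgeR, adjusted p = 0.0203). All tumor libraries lay above all normal ones, as they did for 0.886% of all genes tested. Pla2g12a, another secreted phospholipase, rose by 1.15 ± 0.28 (adjusted p = 0.0491) with levels of 24.4 to 83.6 CPM in tumor libraries and 11.3 to 27.1 CPM in normal libraries, which overlapped.

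Among 6 genes of breakdown and export, all tested, 1 rose. This was Abcc4, the gene of a transporter that carries prostaglandins out of cells and also exports cyclic nucleotides. It was at 19.4, 33.2 and 44.9 CPM in tumor Lrig1-high and 49.9, 20.4 and 152.9 CPM in tumor Lrig1-low cells, against 4.54, 6.62, 28.1 and 10.9 CPM in normal Lrig1-high and 1.30, 1.97, 12.5 and 4.35 CPM in normal Lrig1-low cells. Its change was 2.62 ± 0.59 (edgeR, adjusted p = 0.0395), and S10 was the normal library that overlapped the tumor ones. Among 24 genes of cyclic AMP signalling downstream of EP2 and EP4, 22 were tested and 1 rose, the adenylyl cyclase gene Adcy1 (2.13 ± 0.44, adjusted p = 0.0310), at 7.06 to 77.9 CPM in tumor and 2.69 to 12.5 CPM in normal libraries. The median change of this list was 0.26. Pla2g2f, Pla2g12a, Abcc4 and Adcy1 were all highest in S11, the library with the most Cdh5, and the part of other cells in these levels was not tested.

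In the other lists no gene passed. The 6 tested of 9 other prostanoid synthases had a median change of -0.20, with -0.66 ± 0.34 for Cbr1, a carbonyl reductase, and -0.72 ± 0.40 for Gstm2, a glutathione transferase (log2, SE). Of 7 other prostanoid receptors 4 were under 1 CPM in every library and 2 were tested. Ptger3, the gene of the EP3 receptor, was at 0 to 0.352 CPM in tumor and 0 to 1.17 CPM in normal libraries, and Ptgdr, a receptor gene for prostaglandin D2, at 0 to 1.06 CPM in tumor and 0.132 to 5.99 CPM in normal libraries. Of 10 leukotriene and lipoxygenase genes 7 were tested, with a median change of 0.56 and -0.37 ± 0.14 for the most abundant, Lta4h, the gene of leukotriene A4 hydrolase (adjusted p = 0.174). Gpx4, the gene of a glutathione peroxidase that reduces lipid hydroperoxides, stood at -0.11 ± 0.26 (adjusted p = 0.870). Within single fractions, between fractions and in the test of the difference, no gene of the 6 lists passed.

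The lists gave more calls without S07, S08, S09 and S10. With the fractions averaged, Pla2g2f, Pla2g12a, Abcc4 and Adcy1 again rose in tumor cells (adjusted p of 0.00321 to 0.0207), and Pla2g5, Abcc1 and Alox12 passed as well, all higher. Within Lrig1-low cells 9 genes of the lists passed, all higher in tumors. Most calls among all 13982 genes tested in that fit had this direction. With the fractions averaged 658 genes passed, 611 of them higher, and in Lrig1-low cells 452 passed, 432 of them higher. Between the fractions of normal cells, Pla2g2a and Pla2g5, both genes of secreted phospholipases, were higher in Lrig1-high cells (4.90 ± 0.70, adjusted p = 0.00767, and 2.58 ± 0.46, adjusted p = 0.0162), while Ptgs1 and Cbr1 were lower (-2.97 ± 0.68, adjusted p = 0.0372, and -1.09 ± 0.23, adjusted p = 0.0291). The 4 libraries were chosen for their Lrig1 RNA, so these fits are not independent of genes that go with Lrig1.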

How the data were processed

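The authors deposited raw counts of reads, unscaled. Per the file headers, featureCounts 1.5.3 assigned reads to RefSeq exons of the mm10 build with its reverse-stranded option. The command names no option for counting pairs, so each end was counted as a read, and none for reads that map to several places, so near-identical genes can lose reads. Trimmomatic, HISAT2 and Subread are named in the submitters' processing notes, without a role. Per the labels' protocols, a stranded kit for very little total RNA was used, ribosomal RNA was depleted, and both ends were read.

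Groups were taken from the sample titles. The labels name no animal or batch, so p-values reflect how far these libraries differ among themselves, which may be technical, and fractions could come from the same animals. The library S15 was left out for holding under 1000 counts. The other 14 were fitted together in edgeR 4.0.16 (R 4.3.3) after TMM scaling and filterByExpr, with a mean for each group. Contrasts were tested by quasi-likelihood F, p-values of all 13883 tested genes were adjusted by Benjamini-Hochberg, and an adjusted p under 0.05 was called. The SE was taken as the size of the log2 change over the root of F. Counts were turned into CPM with the TMM factors. The averaged comparison is the mean of the tumor over normal contrasts of both fractions. The script was tested on simulated counts.

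The members and lists were chosen with earlier results of these data known. All members were named. From each list the rule took genes past the threshold (up to 3 per direction), or, with none past it, the 2 with the highest mean CPM. For the 3 members with the largest SD of log2(CPM + 1) it took the 3 genes nearest in pattern. Lrig1, Epcam, Ptprc and Pecam1 were named as checks of the sort. Alternatives were edgeR with the size factors of DESeq2, DESeq2 1.42.0 itself, no filter, a filter of 1 CPM in 4 libraries, only the groups compared, limma-voom (limma 3.58.1) with sample weights, S15 included, S07, S08, S09 and S10 left out, and each library left out in turn. The fit of tumor and normal cells as 2 groups was chosen after seeing the data, and the 4 libraries were picked for their Lrig1 RNA, so the fit without them is not independent of genes that go with Lrig1. Promoters came from RefSeq (GRCm38.p6), where all 9 members were matched.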

Additional observations from a re-analysis of the deposited data

How the results depend on the processing

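Over the alternatives of the 36 log2 fold changes of the 6 tested members, 786 values in all, 720 kept their direction and their side of the threshold, 20 lost the call, 10 gained one and 36 changed sign, in 15 of the fold changes. For tumor over normal averaged over the fractions, where 2 members passed, 1 passed with DESeq2 size factors in edgeR, 1 with limma-voom and sample weights, 1 without S07, S08, S09 and S10, and 0 to 2 when single libraries were left out. None passed without S01, S02, S05, S11, S13 or S14. Tumor and normal cells as 2 groups, a fit chosen after seeing the data, gave 1.03 for Ptger4 (adjusted p = 0.0199) and -1.28 for Hpgd (adjusted p = 0.0439). Where no member passed as reported, DESeq2 called 1 in Lrig1-low cells (Hpgd, lower in tumors) and 1 in Lrig1-high cells (Ptger4, higher in tumors), and limma-voom called 2 in Lrig1-low cells (Ptger4 higher, Hpgd lower) and 3 between the fractions of normal cells. Leaving out single libraries gave 0 to 1 members called in Lrig1-low cells and 0 to 1 in Lrig1-high cells.

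Among all genes, 308 passed in the averaged comparison as reported, 1060 with DESeq2, 548 with limma-voom, 658 without S07, S08, S09 and S10, and 34 (without S11) to 1060 (without S04) when single libraries were left out. In Lrig1-low cells 46 passed, 706 with DESeq2, 1389 with limma-voom, 452 without those 4 libraries and 0 to 285 when single libraries were left out. Between the fractions of normal cells 0 passed as reported and when single libraries were left out, and 796 without the 4 libraries. The sign changed without S07, S08, S09 and S10 for Pla2g4a in tumor over normal averaged over the fractions (-0.16), for Ptges2 (-0.084) and Pla2g4a (1.31) in Lrig1-high over Lrig1-low in tumors, and for Slco2a1 in the difference between fractions (-0.59). It changed with limma-voom for Ptger4 (-0.041) and Pla2g4a (0.88) in Lrig1-high over Lrig1-low in tumors and for Ptger4 in the difference between fractions (-0.11), and with S15 included for Hpgd in Lrig1-high over Lrig1-low in tumors (0.011).

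When single libraries were left out, the fold changes that changed sign ranged as follows, none of them called. In tumor over normal, Pla2g4a ranged from -0.24 to 1.81 in Lrig1-low cells, from -1.16 to 0.21 in Lrig1-high cells and from -0.24 to 0.79 averaged, and Ptges3 from -0.080 to 0.35 and Slco2a1 from -2.20 to 0.19 in Lrig1-high cells. In Lrig1-high over Lrig1-low, Ptges2 ranged from -0.20 to 0.030 and Ptger4 from -0.043 to 0.11 in normal cells. In tumors Ptges2 ranged from -0.0016 to 0.41, Hpgd from -0.29 to 0.43, Slco2a1 from -2.02 to 0.42, Ptger4 from -0.093 to 0.54 and Pla2g4a from -1.32 to 1.14. In the difference between fractions Ptges3 ranged from -0.23 to 0.23, Slco2a1 from -1.44 to 0.98 and Ptger4 from -0.14 to 0.51. The cause of these changes was not tested. No paired analysis was possible because no number in the labels is shared by 2 libraries. Counts of 22 or fewer for Ptgs2 and 28 or fewer for Ptges in a library limit what can be said of both genes.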
